A study of Mus musculus with 2 samples.

Results

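The S100 genes encode small calcium-binding proteins with paired EF-hand motifs, and 10 of them are described here in cultured cells from the base of the newborn mouse heart: S100a1, S100a4, S100a6, S100a8, S100a9, S100a10, S100a11, S100a13, S100a16 and S100b. They were taken by symbol from the 28692 genes listed in both single-cell matrices, in every barcode with at least 8000 unique molecular identifiers (UMIs, tags that count captured RNA molecules) and at most 20% mitochondrial UMIs. Both groups came from hearts of C57Bl6 mice, male and female, aged 3 days, whose single-cell preparations from 15 hearts were pooled by domain. The dorsal domain took in the pulmonary veins, the cardiac ganglia and the sinoatrial node. The ventral domain took in the outflow tract's base, the pulmonary artery and the proximal part of the aorta. Cells of both domains then grew for 5 days as adherent cultures before they were released with trypsin and captured with a 3′ kit, so the values describe cultured adherent cells, not fresh tissue. Each domain is 1 pooled library, and no difference between them has a replicate check.

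The dorsal library held 8926 such cells with 229117951 UMIs and the ventral library 10649 cells with 253103590 UMIs. The median cell had 22774 UMIs in dorsal and 21462 in ventral cells. Clustering of all cells together, with every S100 gene left out, gave 21 clusters. In 17 of them 1 library supplied 90% or more of the cells, and 93.8% of all cells were in such clusters. In what follows, a level is a gene's share of all UMIs of a group of cells, in UMIs per 1000000 UMIs (CPM), and a ratio is a log2 ratio of ventral over dorsal levels. Intervals are 95% intervals that cover counting error only. Genes that reached 20 CPM in the dorsal or the ventral library were compared, and a gene was called where the libraries differed at least 2-fold.

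S100 proteins bind calcium through an EF-hand particular to the family and act mostly as dimers that dock onto target proteins once calcium has bound. S100a10 is the exception: it no longer binds calcium and instead holds the annexin Anxa2 at the membrane. S100a1 is known from heart muscle, where it acts on the calcium handling of the sarcoplasmic reticulum, S100b is a classical marker of glia, and S100a8 and S100a9 together form calprotectin in neutrophils and monocytes. S100a4 is also called fibroblast-specific protein, binds nonmuscle myosin and is used as a marker of fibroblasts and of motile cells. In the mouse, 9 of the 10 genes described lie together on chromosome 3 and S100b lies on chromosome 10.

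The promoter windows of the 4 members that differed at least 2-fold between the libraries are printed here because they show how unlike the start regions of genes with a common direction were. Each runs from 250 bases before to 50 bases after the annotated start, from RefSeq's GRCm38.p6 table. That table held windows for 9 of the 10 members, 10 windows in all. All 4 windows lie on the plus strand, S100a4 at chr3:90603520-90603819, S100a6 at chr3:90612644-90612943, S100a11 at chr3:93520246-93520545 and S100a13 at chr3:90514185-90514484. Capitals mark matches on either strand to the TATA box (TATAAA), the GC box (GGGCGG) or the AP-1 motif (TGANTCA).
S100a4: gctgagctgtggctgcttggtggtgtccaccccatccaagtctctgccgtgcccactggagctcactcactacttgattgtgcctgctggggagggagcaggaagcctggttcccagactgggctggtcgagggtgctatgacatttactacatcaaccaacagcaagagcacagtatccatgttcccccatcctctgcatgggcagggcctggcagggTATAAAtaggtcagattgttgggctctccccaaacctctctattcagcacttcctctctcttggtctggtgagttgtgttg
S100a6: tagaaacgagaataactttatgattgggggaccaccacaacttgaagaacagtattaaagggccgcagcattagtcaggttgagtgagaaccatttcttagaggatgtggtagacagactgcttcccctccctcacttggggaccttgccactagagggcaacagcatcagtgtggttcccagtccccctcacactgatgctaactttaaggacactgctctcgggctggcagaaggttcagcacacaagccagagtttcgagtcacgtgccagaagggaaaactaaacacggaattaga
S100a11: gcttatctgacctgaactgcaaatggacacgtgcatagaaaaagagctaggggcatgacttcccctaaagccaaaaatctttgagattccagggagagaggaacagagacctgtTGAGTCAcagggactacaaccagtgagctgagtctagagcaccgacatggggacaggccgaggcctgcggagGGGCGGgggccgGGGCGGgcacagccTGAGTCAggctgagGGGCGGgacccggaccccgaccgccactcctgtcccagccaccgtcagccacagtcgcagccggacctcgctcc
S100a13: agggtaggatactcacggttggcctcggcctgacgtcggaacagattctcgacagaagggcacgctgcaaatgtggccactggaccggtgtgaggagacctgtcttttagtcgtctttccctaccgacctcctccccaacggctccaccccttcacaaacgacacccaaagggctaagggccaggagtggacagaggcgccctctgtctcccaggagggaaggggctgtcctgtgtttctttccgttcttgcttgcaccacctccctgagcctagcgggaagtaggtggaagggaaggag

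The S100a4 window held 1 TATA box, 31 bases before the start. The S100a11 window held 3 GC boxes and 2 AP-1 matches. Neither the S100a6 nor the S100a13 window held any of these letters. Of 32851 windows in the table, 13.6% held the TATA box, 35.7% the GC box and 7.81% the AP-1 motif. Over the 10 member windows, 3 held a TATA box (S100a4, S100a8 and S100a9), though the S100a9 match does not lie before the annotated start. A GC box was in 3 (S100a9, S100a11 and the second window of S100a16) and an AP-1 match in 2 (S100a11 and the second window of S100a16). The TEAD motif (GGAATG), found in 14.7% of all windows, the CArG box, in 1.63%, and the NF-kB motif, in 8.46%, were found in 0 of the 10. The windows of S100a1 and S100a13 share 204 bases, and in the GENCODE annotation these genes start 43 bases apart on opposite strands. A match is a description of letters and not of a bound site.

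S100 transcripts took a larger part of the ventral than of the dorsal RNA: the 10 genes together held 0.648% of all UMIs in the ventral and 0.247% in the dorsal library. Of the 7 members at 20 CPM or more, 4 were higher by 2-fold or more in the ventral library (S100a4, S100a6, S100a11 and S100a13) and 0 in the dorsal. Among all 5821 genes compared, 5.12% were higher by 2-fold or more in the ventral and 4.69% in the dorsal library. The median ratio of the 7 members was 1.09 on the log2 scale, against a median of -0.01 over all genes compared. S100a4 reached the level for comparison through the ventral library alone, so that its place among the 7 is not independent of its difference. S100a6 and S100a11 made up 80.5% of the members' UMIs in the ventral and 74.7% in the dorsal library, so the family total mostly follows these genes.

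**Figure D1:**
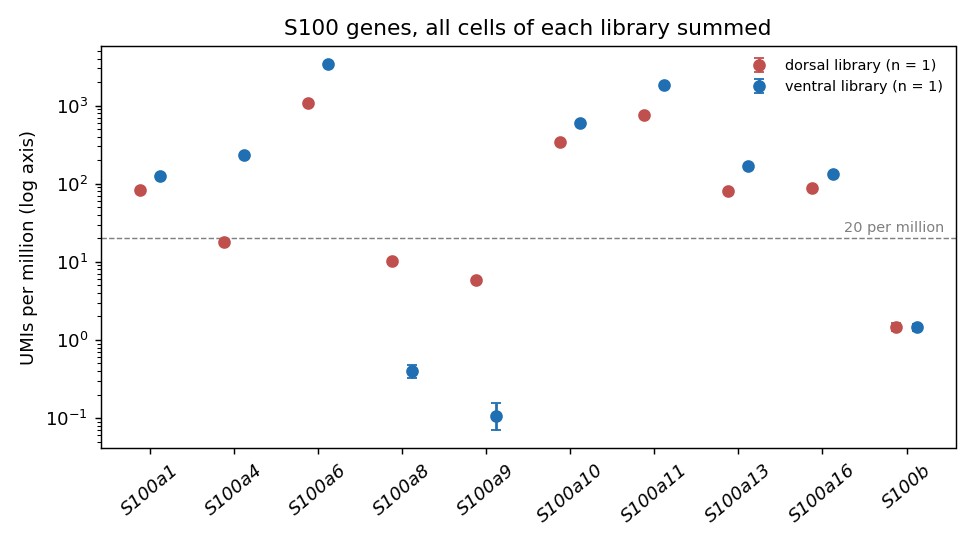
Levels of the 10 S100 genes with all cells of a library summed, in CPM on a log axis, for the dorsal (red) and ventral (blue) libraries; bars are exact 95% Poisson intervals, and the dashed line is the level of 20 for comparison. S100a4 lies at 17.8 in dorsal and 230.4 in ventral cells, S100a8 and S100a9 lie lower in the ventral library, and S100b lies at the same low level in both.

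S100a4, the nonmuscle myosin-binding member, had the largest ratio of the 7. Its level was 17.8 CPM (17.2 to 18.3) in the dorsal and 230.4 (229 to 232) in the ventral library, 12.96-fold higher in the latter, or 3.70 on the log2 scale (3.65 to 3.74). After every cell was thinned to 8000 UMIs, 9.03% of dorsal and 45.0% of ventral cells still had at least 1 S100a4 UMI, and without thinning these shares were 17.0% and 61.5%. Endothelial-like cells, which held the least S100a4, give the background for those shares: 1.02% of dorsal and 9.92% of ventral endothelial-like cells had an S100a4 UMI after thinning. Barcodes with only 10 to 100 UMIs, taken as a measure of free RNA after barcodes called as cells in the other library were left out, had S100a4 at 119 CPM in the dorsal library, above the dorsal cells, and at 216 in the ventral library, near the ventral cells. The dorsal value rests on 43 UMIs, and any further carry-over from the ventral library could not be told apart from free RNA. With each of the 7 named classes given its mean share over the libraries, the S100a4 ratio was 3.29. That value leaves out the unnamed clusters, where S100a4 stood at 23.1 CPM in 592 dorsal and 240.1 in 2849 ventral cells, and it gives the mesothelial-like class, with 21 dorsal cells, 9.17% of the weight.

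S100a6, or calcyclin, first found as a transcript induced in growing cells, was the most abundant member in both libraries. It stood at 1091 CPM in dorsal and 3379 in ventral cells, 3.10-fold higher in the ventral, with a ratio of 1.63 (1.62 to 1.64). S100a11, which binds the annexin Anxa1, stood at 751 and 1837, a 2.45-fold difference and a ratio of 1.29 (1.28 to 1.30). S100a13, which takes part in the release of the growth factor Fgf1, stood at 80.1 and 170.2, a 2.12-fold difference and a ratio of 1.09 (1.06 to 1.11). S100a6 and S100a11 were present in nearly every cell of either library: after thinning, 93.6% of dorsal and 98.7% of ventral cells had a UMI of S100a6, and 98.4% and 99.8% one of S100a11. The low-UMI barcodes had S100a6 at 1329 CPM in dorsal and 2659 in ventral cells, so free RNA differed in the same direction as the cells. With the named classes at their mean shares the ratios were 1.51 for S100a6, 1.14 for S100a11 and 1.16 for S100a13.

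S100a10, S100a1 and S100a16 were also higher in the ventral library but by less than 2-fold. S100a10, the calcium-independent partner of Anxa2, stood at 338 CPM in dorsal and 599 in ventral cells, a ratio of 0.82 (0.81 to 0.84). S100a1 stood at 82.2 and 127, a ratio of 0.63 (0.60 to 0.66). S100a16, a widely expressed member, stood at 88.1 and 132, a ratio of 0.58 (0.56 to 0.61). Thinned shares of cells with a UMI moved the same way, from 78.4% to 91.0% for S100a10, from 40.5% to 57.2% for S100a1 and from 47.1% to 57.4% for S100a16. All 7 members compared were thus higher in the ventral library, 4 of them at least 2-fold.

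S100a8 and S100a9, the calprotectin subunits, were the members with lower ventral levels, and both stayed under 20 CPM. S100a8 stood at 10.4 in dorsal and 0.399 in ventral cells, and S100a9 at 5.93 and 0.107. A single dorsal barcode carried most of these UMIs: of 35874 UMIs it had 1706 of S100a8 and 1310 of S100a9, which were 71.9% and 96.4% of each gene's dorsal UMIs. The same barcode had 249 UMIs of Prtn3, 139 of Mpo and 79 of Elane, granule proteins made by immature granulocytes, with 1 UMI of the neutrophil receptor Csf3r and 0 of Ltf, Camp and Ngp. It also had 15 UMIs of the cycling gene Top2a, 3 of Col1a1 and 0 of the macrophage genes Lyz2 and C1qa, and it fell in cluster 3, a cluster led by cell-division genes. No other cell in either library had more than 3 S100a9 UMIs. Without this barcode, S100a9 stood at 0.214 CPM in the dorsal library (49 UMIs) and S100a8 at 2.91, which left ratios of -1.0 (-1.74 to -0.30) for S100a9 and -2.87 (-3.18 to -2.56) for S100a8.

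Macrophage-like cells were the other source of S100a8, and there it came without S100a9. They held 603 S100a8 UMIs in 196 dorsal cells and 74 in 131 ventral cells, or 66.2 and 18.7 CPM, a ratio of -1.82 (-2.19 to -1.47). Of these cells, 41 dorsal (20.9%, Clopper-Pearson 15.4% to 27.3%) and 3 ventral (2.29%, 0.475% to 6.55%) had 5 or more S100a8 UMIs, with at most 34 in a dorsal and 8 in a ventral cell. Outside the macrophage-like cells and the single granulocyte-gene barcode, 0 cells in either library had 5 or more S100a8 UMIs. S100a9 had 5 UMIs in all dorsal and 2 in all ventral macrophage-like cells. The median macrophage-like cell had 43244 UMIs in dorsal and 27578 in ventral cells. After thinning to 8000 UMIs, 26.5% of dorsal and 14.5% of ventral macrophage-like cells had an S100a8 UMI, against 0.235% and 0.117% of fibroblast-like cells. The summed level of the neutrophil marker list in macrophage-like cells was 49.2 CPM in the dorsal library, with 3 of 11 genes at 0, and 9.62 in the ventral library, with 6 of 11 at 0. Its part in the S100a8 difference was not tested.

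**Figure D2:**
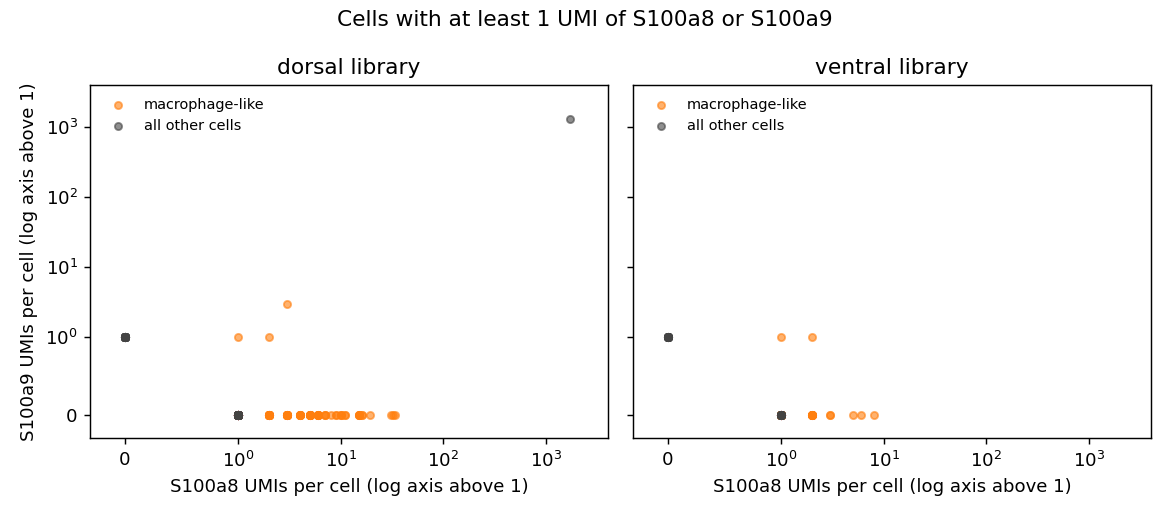
UMIs of S100a8 (horizontal) and S100a9 (vertical) per cell for every cell with at least 1 UMI of either gene, on axes that are logarithmic above 1, in the dorsal (left) and ventral (right) libraries; orange points are macrophage-like cells and grey points all other cells. The dorsal point with 1706 and 1310 UMIs stands alone, and macrophage-like cells spread along the S100a8 axis up to 34 UMIs in dorsal and 8 in ventral cells with S100a9 at 3 or fewer.

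S100b, the glial member, was rare and did not differ detectably between the libraries. It stood at 1.47 CPM (1.32 to 1.64) in the dorsal and 1.45 (1.30 to 1.60) in the ventral library, with a ratio of -0.02 (-0.24 to 0.19). The Schwann and glial-like cells held its highest level, 11.9 (9.28 to 14.9) in the dorsal and 9.15 (6.30 to 12.9) in the ventral library. These cells carried 21.4% of the dorsal and 9.02% of the ventral S100b UMIs. After thinning, 6.99% of dorsal and 5.91% of ventral glial-like cells had an S100b UMI, against 0.927% and 0.799% of fibroblast-like cells. The 11 glial marker genes, Sox10 among them, summed to 2631 and 2044 CPM in the glial-like cells and to 21.1 and 4.63 in fibroblast-like cells, with none at 0 in either.

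Cell classes were compared next, to see which cells carried each member. Of the 21 clusters, 16 could be named from marker genes, giving 7 classes with at least 20 cells in both libraries and 38 dorsal skeletal muscle-like cells, and 5 clusters stayed unnamed (592 dorsal and 2849 ventral cells). The class with the highest level was the same in both libraries for 7 of the 10 members. S100a1 and S100a13 were highest in cardiomyocyte-like cells, S100a16 in endothelial-like cells, S100a6 in mesothelial-like cells, S100a8 and S100a9 in macrophage-like cells and S100b in glial-like cells. For S100a9 the interval of the first class overlapped that of the second in both libraries, and for S100b in the ventral library, so these could not be ordered at this depth. S100a4 and S100a10 were highest in glial-like cells in the dorsal and in mesothelial-like cells in the ventral library, and S100a11 in mesothelial-like cells in the dorsal and in mural-like cells in the ventral library. The mesothelial-like class had 21 dorsal and 1085 ventral cells and the cardiomyocyte-like class 37 and 29, so neither was compared between the libraries, and their values are given side by side only.

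**Figure D3:**
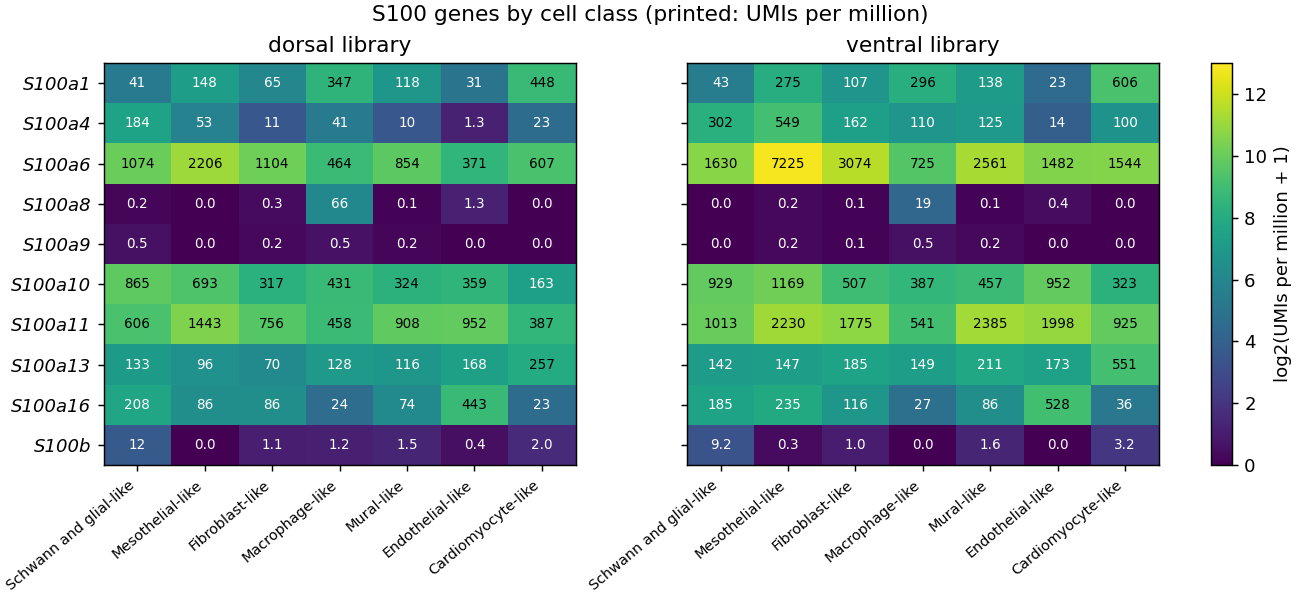
Levels of the 10 S100 genes (rows) in 7 cell classes (columns) of the dorsal (left) and ventral (right) libraries, printed in CPM and coloured by log2(level + 1). S100a6 reaches 7225 in ventral mesothelial-like cells, S100a1 is highest in cardiomyocyte-like and S100a16 in endothelial-like cells in both libraries, and S100a8 is above 2 only in macrophage-like cells among these 7 classes.

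Cardiomyocyte-like cells, few as they were, held the most S100a1 and S100a13. S100a1 stood there at 448 CPM (407 to 492) in the dorsal and 606 (547 to 670) in the ventral library. S100a13 stood at 257 (227 to 291) and 551 (495 to 612). Macrophage-like cells came next for S100a1, at 347 and 296, well above the 64.8 and 107 of fibroblast-like cells, while their S100a16 was among the lowest, at 24.04 and 26.57. Endothelial-like cells showed the reverse pattern, with the most S100a16, at 443 (416 to 471) and 528 (501 to 555), and the least S100a1, at 31.2 and 22.7. The 38 dorsal skeletal muscle-like cells did not share the high S100a1 of cardiomyocyte-like cells: S100a1 stood there at 77.9 (64.1 to 93.8) and S100a6 at 1478 (1415 to 1542). Over the 21 clusters S100a1 and S100a16 had a Pearson correlation of -0.63.

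Mesothelial-like cells, which line the heart's outer surface, had the most S100a6 and, in the ventral library, the most S100a4 and S100a10. In the 1085 ventral cells S100a6 stood at 7225 CPM (7196 to 7254), S100a4 at 549 (541 to 557), S100a10 at 1169 (1157 to 1181) and S100a11 at 2230.1 (2214 to 2246). The 21 dorsal cells had 2206 (2106 to 2310) of S100a6, 53.4 (38.8 to 71.7) of S100a4, 693 of S100a10 and 1443 of S100a11. These ventral cells carried 30.7% of all ventral S100a4 UMIs and 27.5% of the S100a6 UMIs, while being 10.2% of the ventral cells. A thinned ventral mesothelial-like cell had a median of 50 S100a6 UMIs among 8000, against 20 in a ventral and 6 in a dorsal fibroblast-like cell. The 11 mesothelial markers summed to 874 CPM in the 21 dorsal cells, with 1 at 0, and to 2461 in the ventral ones, with 0 at 0. The 20 cell-division genes summed to 2272 and 999. Other clusterings left only 4 to 10 dorsal cells in this class. The part of these shifts in the dorsal S100 values was not tested.

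Fibroblast-like cells were the largest class, with 6799 dorsal cells, most of them from clusters 0, 1, 2 and 8, and 5131 ventral cells, most of them from clusters 12 and 14, so that the class was built mainly from different clusters in each library. Here 4 of 7 members compared were higher by 2-fold or more in the ventral library and 0 in the dorsal, where 5.16% of all genes compared in this class were higher by 2-fold or more in the ventral and 5.28% in the dorsal library. S100a4 stood at 10.7 CPM in dorsal and 162 in ventral fibroblast-like cells, a ratio of 3.92 (3.85 to 3.98), and it reached the level for comparison through the ventral cells alone. S100a6 stood at 1104 and 3074, a ratio of 1.48, S100a11 at 756 and 1775, a ratio of 1.23, and S100a13 at 70.3 and 185, a ratio of 1.40. S100a10, S100a1 and S100a16 differed by less than 2-fold, with ratios of 0.68, 0.73 and 0.44. Although S100a4 is used elsewhere as a marker of fibroblasts, 6.50% of thinned dorsal fibroblast-like cells had an S100a4 UMI, against 51.6% of dorsal glial-like cells. In the ventral library these shares were 38.4% and 66.7%. The 9 smooth muscle markers, all detected, summed to 971 CPM in dorsal and 7178 in ventral fibroblast-like cells, and the 11 fibroblast markers to 16127 and 11869.9. The 10 cardiomyocyte markers, all detected, summed to 110.2 and 885. The part of these shifts in the S100 differences was not tested.

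Mural-like cells, named from smooth muscle and pericyte markers, likewise had 7 of 7 members compared higher in the ventral library. They again came from different clusters (4 and 11 for most of 730 dorsal cells, 15 and 16 for most of 1107 ventral cells). Dorsal cluster 11 was led by Des, Actg2 and Chrm2, and whether the cells of this class came from vessel walls was not tested. Of 7 members, 3 were higher by 2-fold or more in the ventral cells, against 4.48% of all genes compared in this class, and 0 in the dorsal cells, against 6.03%. S100a4 stood at 10.4 and 125 CPM, a ratio of 3.59 (3.34 to 3.85), S100a6 at 854 and 2561, a ratio of 1.58, and S100a11 at 908 and 2385, a ratio of 1.39. S100a4 reached the level for comparison through the ventral cells alone, so its place among the 7 is not independent of its difference. S100a13 missed the 2-fold limit with a ratio of 0.85, and S100a10, S100a1 and S100a16 had ratios of 0.49, 0.23 and 0.21. The smooth muscle markers summed to 14131 CPM in dorsal and 31032 in ventral mural-like cells, all 9 detected in both. Cardiomyocyte markers summed to 278 and 1479, with 1 of 10 at 0 in the dorsal cells, and chondrocyte markers to 15.5 and 209.98, with 1 and 2 at 0. The part of these lists in the S100 ratios was not tested. The mural-like clusters differed among themselves within a library: S100a6 stood at 539 in dorsal cluster 4 and 1712 in dorsal cluster 11, and at 1278 in ventral cluster 15 and 4676 in ventral cluster 16.

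Endothelial-like cells, 98 dorsal and 131 ventral from 1 common cluster, had S100a6, S100a10 and S100a11 higher by 2-fold or more in the ventral library, 3 of 6 members compared, against 3.77% of all genes compared in this class. The dorsal count was 0 of 6, against 7.06%. S100a6 stood at 371 and 1482 CPM, a ratio of 2.0 (1.89 to 2.11). S100a10 stood at 359 and 952, a ratio of 1.41 (1.29 to 1.52), which was the only comparison between classes of both libraries in which this gene passed 2-fold. S100a11 stood at 952 and 1998, a ratio of 1.07 (1.0 to 1.14), whose interval reaches the limit. S100a4 was lowest in this class in both libraries, at 1.28 (3 UMIs) and 14.04 (39 UMIs), too low to be compared. S100a13 and S100a16 differed by little, with ratios of 0.04 and 0.25. The 9 smooth muscle markers summed to 227 CPM in dorsal endothelial-like cells, with 1 at 0, and to 1169 in ventral ones, with 0 at 0. The 11 fibroblast markers summed to 821 and 1135, all detected. The part of either list in these values was not tested.

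In Schwann and glial-like cells, 415 dorsal and 186 ventral from 1 common cluster, 0 of 7 members passed 2-fold in either direction, where 4.08% of all genes compared in this class were higher by 2-fold or more in the ventral and 2.93% in the dorsal library. S100a4 was already high in the dorsal glial-like cells, at 184 CPM (173 to 195), and stood at 302 (284 to 320) in the ventral ones, a ratio of 0.72. Although glial-like cells were 4.65% of dorsal cells, they carried 27.4% of the dorsal S100a4 UMIs. S100a6 and S100a11 had ratios of 0.60 and 0.74. S100a10 was abundant and nearly level, at 865 and 929, a ratio of 0.10 (0.04 to 0.17), and among the 7 classes its annexin partner Anxa2 was highest in this class in both libraries, at 1580.4 and 1882. S100a16 was the 1 member of 7 that was lower in the ventral cells, with a ratio of -0.17 (-0.31 to -0.04). The 9 smooth muscle markers summed to 117 CPM in dorsal and 1596 in ventral glial-like cells, and the 11 fibroblast markers to 3885 and 5917, all detected. The part of either list in these ratios was not tested.

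In macrophage-like cells, 196 dorsal and 131 ventral, 1 of 8 members compared was higher by 2-fold or more in the ventral library, against 2.92% of all genes compared in this class, and 1 in the dorsal, against 3.49%. These were S100a4, at 41.5 and 110.1 CPM, a ratio of 1.41 (1.21 to 1.61), and S100a8, whose ratio of -1.82 is given above and which reached the level for comparison through the dorsal cells alone. Without likely doublets the S100a4 ratio in this class was 1.08. S100a6 stood at 464 and 725, a ratio of 0.64, and S100a11 at 458 and 541, a ratio of 0.24. S100a1 and S100a10 were slightly lower in the ventral cells, with ratios of -0.23 (-0.33 to -0.13) and -0.15 (-0.24 to -0.07). Smooth muscle markers summed to 463 CPM in dorsal and 1869.9 in ventral macrophage-like cells, with 9 of 9 detected in both. The 10 cardiomyocyte markers summed to 40.8 and 260.2, with 1 at 0 in each, and the 11 fibroblast markers to 4644 and 3279.5, all detected. S100a6 lay below the level of fibroblast-like cells in both libraries, and S100a4 above it in the dorsal and below it in the ventral library. The part of RNA from other cells in these values was not tested.

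Across the 5 classes that reached 50 cells in each library, 35 pairs of a member and a class could be compared, and 30 of them were higher in the ventral library, 11 at least 2-fold, while 1 was at least 2-fold higher in the dorsal. The median ratio of all genes compared ran from -0.11 in glial-like to 0.09 in macrophage-like cells, and the shares of genes at least 2-fold apart are given above for each class. The count of 30 became 27 with a minimum of 15000 UMIs and 29 without likely doublets. S100a6 and S100a11 were higher in the ventral library in all 5 classes, and S100a4 in the 4 classes where it could be compared. In fibroblast-like and mural-like cells S100a4 reached the level for comparison through the ventral cells alone, so the filter fixed its direction there. The same holds for S100a8 in macrophage-like cells through the dorsal cells. These pairs are part of the counts above. The members' ratios spread widely by class: S100a6 ran from 0.60 in glial-like to 2.0 in endothelial-like cells, and S100a10 from -0.15 in macrophage-like to 1.41 in endothelial-like cells. With 1 library per domain, the differences between classes in these ratios were not tested.

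**Figure D4:**
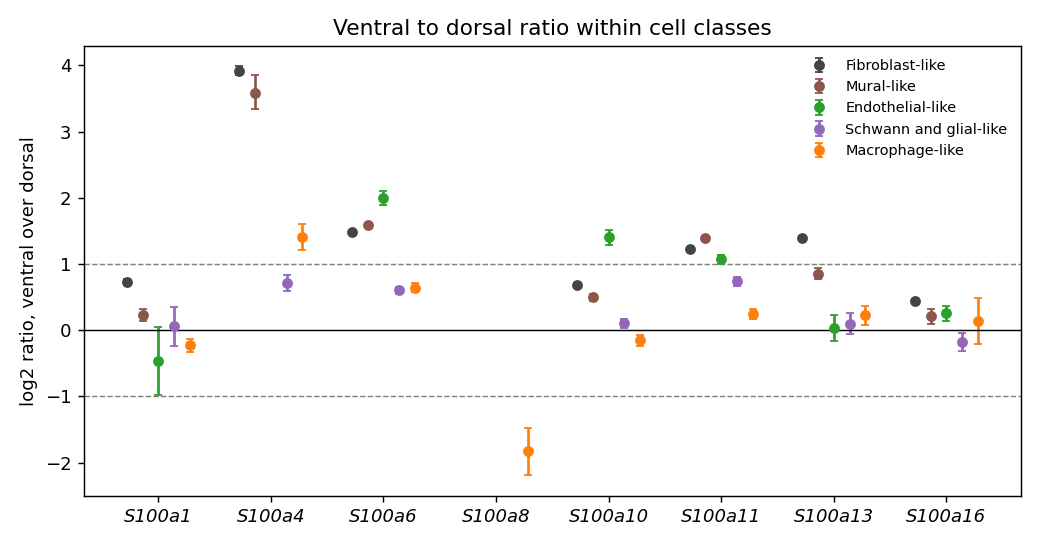
Log2 ratio of ventral over dorsal level for each S100 gene at 20 CPM or more (horizontal) in the 5 classes that reached 50 cells in each library (colours); bars are exact 95% counting intervals, the solid line is no difference and dashed lines are 2-fold. S100a4 in fibroblast-like and mural-like cells lies above 3, S100a6 and S100a11 lie above 0 in every class shown, and S100a8 in macrophage-like cells is the only point below -1.

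Within each library the members also varied between clusters. For each member compared, that spread was wider than the difference between the libraries, except for S100a13 over ventral clusters (1.71-fold against 2.12-fold). Over the 11 clusters with at least 50 dorsal cells, S100a4 ran from 1.28 CPM (endothelial-like cluster 18) to 184 (glial-like cluster 5), with a median of 12.2. Over the 11 clusters with at least 50 ventral cells it ran from 14.04 (cluster 18) to 549 (mesothelial-like cluster 9), with a median of 135. Cluster 13, an unnamed ventral cluster led by the tendon and valve genes Fmod and Scx, had 367, and cluster 17, another unnamed ventral cluster led by Col12a1 and Igfbp3, had 34.8. Among dorsal fibroblast-like clusters S100a4 ran from 3.29 in cluster 2 to 22.3 in cluster 1. S100a13 ran from 58.5 to 168 over dorsal clusters and, as the most even of the 10 there, from 135 to 230.4 over ventral ones. S100a11 ran from 458 to 1147, the most even over dorsal clusters, and from 541 to 2969 over ventral ones, and S100a6 from 371 to 1929 and from 725 to 7225 in turn. The ranges of dorsal and ventral clusters overlapped for each of the 10 members.

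**Figure D5:**
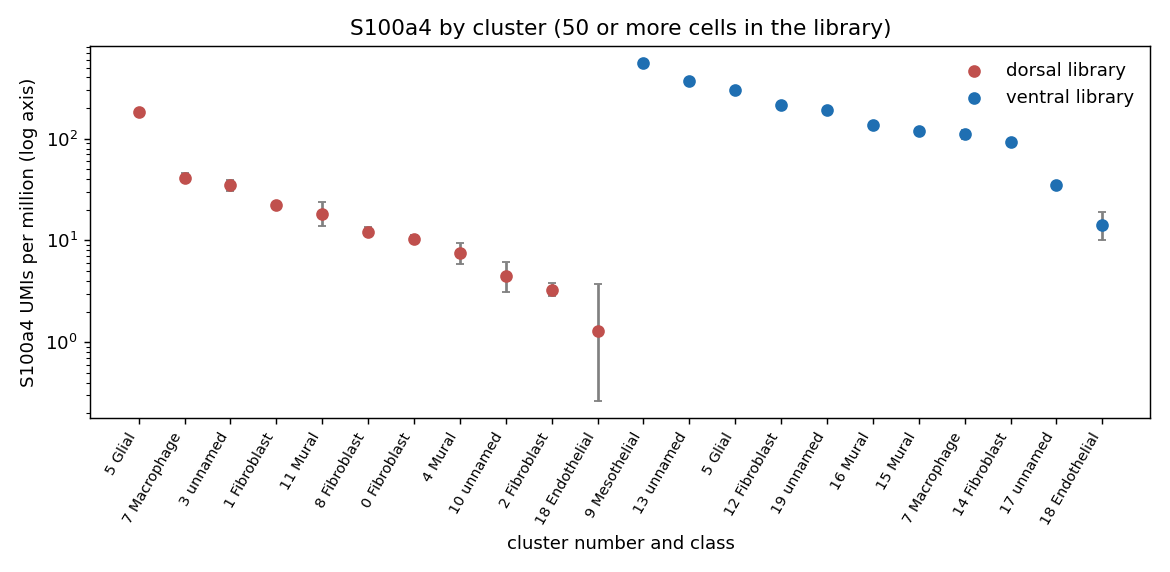
S100a4 level, in CPM on a log axis, in each cluster with at least 50 cells of the dorsal (red) or ventral (blue) library, ordered by level within the library; bars are exact 95% Poisson intervals. Dorsal clusters run from 1.28 to 184 and ventral clusters from 14.04 to 549, and the dorsal glial-like cluster lies above 6 of the 11 ventral clusters.

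Members that were high in the same clusters were mainly S100a6 and S100a11, with a Pearson correlation of 0.79 over 21 clusters on the log2(level + 1) scale, followed by S100a4 with S100a6 (0.64), S100a4 with S100a10 (0.60) and S100a10 with S100a16 (0.60). S100a8 and S100a9 reached 0.82, a value that includes cluster 3 with its single granulocyte-gene barcode. Clusters drawn mostly from 1 library share its depth and culture, so these values also carry the difference between the libraries. Within fibroblast-like cells thinned to 8000 UMIs, where class and library are fixed, Spearman's rho was 0.28 in 6799 dorsal and 0.42 in 5131 ventral cells for S100a6 with S100a10, 0.27 and 0.40 for S100a6 with S100a11, 0.21 and 0.31 for S100a10 with S100a11, and 0.15 and 0.30 for S100a4 with S100a6. For S100a1 with S100a13, the pair whose promoter windows overlap, it was 0.05 and 0.10, while their Pearson correlation over the 21 clusters was 0.44. Both genes had a thinned median of 0 UMIs in dorsal and 1 in ventral fibroblast-like cells, and such low counts limit rho.

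Genes among those whose levels followed each member most closely over the 21 clusters, out of 8710 genes and leaving out S100, mitochondrial and ribosomal protein genes, are named next. For S100a4 they were Pmvk (r = 0.80), Dbi and Nsdhl (both 0.79), and for S100a6 Ptpn11, l7Rn6 (both 0.81) and Tead1 (0.80). For S100a11 they were Myl12a (0.90), Myo1c (0.89) and Ost4 (0.88), for S100a13 Aes (0.90), Mrps21 (0.89) and Ndufs5 (0.87), and for S100a10 Msto1 (0.88), Dpp3 (0.87) and Csnk2b (0.85). For S100a16 they were Dnaja1 (0.90) and Cdc37 (0.86), for S100a1 Sesn1 (0.75), Hacd4 (0.71) and Mpc1 (0.70), and for S100b Runx2 (0.79) and Ppp1r1a (0.77). For S100a8 they were Coro1a (0.92), AI662270 (0.91) and Cd52 (0.91), and for S100a9 Cfd, Stfa1 (both 0.99) and AU040972 (0.98), where the S100a9 values rest on 1 barcode. That barcode also held 1706 of the 1709 S100a8 UMIs of dorsal cluster 3, so the S100a8 values carry it too. These are descriptions over clusters that share libraries and are not independent.

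The other members of the family were nearly absent. Of 8 further symbols that begin with S100, 0 reached 20 CPM. Of these, S100pbp, which encodes a binding protein and not an S100 protein, was the most abundant, at 9.66 in dorsal and 10.0 in ventral cells. S100a3, S100a7a and S100a14 stayed under 1 in both libraries, and S100a2, S100a5, S100g and S100z under 0.1.

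Known partners and receptors of S100 proteins were set beside the members to show whether the ventral direction was general. Of 20 listed genes, 12 could be compared, with a median ratio of 0.38. Of these, 1 was at least 2-fold higher in the ventral and 0 in the dorsal library, against 5.12% and 4.69% of all genes compared. That gene was Anxa1, an annexin bound by S100a11, at 312 and 767 CPM, a ratio of 1.30 (1.29 to 1.31). Myh9, the nonmuscle myosin heavy chain bound by S100a4, stood at 111 and 188 CPM, a ratio of 0.75. Anxa2, bound by S100a10, stood at 439 and 669 (ratio 0.61), Anxa5 at 431 and 596 (0.47) and Ahnak, a scaffold bound by the complex of S100a10 and Anxa2, at 298 and 424 (0.51). Bsg, a receptor for S100a9, stood at 1055 and 910.4 (-0.21). The ratios of the 12 genes ran from -0.42 to 1.30, and 9 of them were above 0. Ager, Tlr4 and Fgf1 were picked for naming after their values were seen. The receptors Ager and Tlr4 stood at 0.659 and 0.822 and at 6.38 and 5.51, too low to be compared, with Tlr4 at 24.70 and 21.51 in macrophage-like cells. Fgf1, which S100a13 helps to release, was highest in the class that also had the most S100a13, at 13.1 and 45.9 in cardiomyocyte-like cells.

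Other EF-hand genes gave a second point of comparison. Of 23 listed genes, 17 could be compared, with a median ratio of 0.34. Of these, 2 were at least 2-fold higher in the ventral and 0 in the dorsal library, against 5.12% and 4.69% of all genes compared. The 2 were the actin crosslinkers Actn1, with a ratio of 1.44, and Actn4, with 1.31. Calm2 and Calm3, which encode calmodulin, had ratios of 0.63 and 0.53, and Sparc, the most abundant gene of this list, stood at 6173 and 7443, a ratio of 0.27. The lists are descriptions, and no difference between them and the members was tested.

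The 9 members on chromosome 3 lie between positions 90511034 and 93564643 of GRCm38 (GENCODE M21), with S100a1, S100a13, S100a16, S100a4, S100a6, S100a8 and S100a9 at one end and S100a11 and S100a10 at the other. The interval between holds 66 further genes that are not S100 genes, largely genes of skin cornification such as Lor, Ivl and the Sprr and Lce families, of which 0 reached 20 CPM. Within 500 kb on either side of the interval, 10 other genes could be compared, all of them on the S100a1 side and none beyond S100a10. Their median ratio was -0.14, with a range from -0.65 for Rps27 to 0.61 for Tpm3. In either direction 0 of them passed 2-fold, against 5.12% (ventral) and 4.69% (dorsal) of all genes compared. Neighbouring members differed too: S100a4 and S100a6, whose annotated starts are at 90603771 and 90612882, had ratios of 3.70 and 1.63, while S100a8 and S100a9, beyond them, were lower in the ventral library.

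Cycling cells were more common in the ventral culture, with 751 cells (7.05%) against 175 (1.96%), counted as cells with at least 20 of 8000 thinned UMIs in a list of cell-division genes. Among the named classes, which leave out clusters led by cell-division genes, only the ventral mesothelial-like cells had enough of both kinds to set side by side. These were 130 cycling cells and 751 with at most 2 such UMIs. S100a6, known as a growth-induced gene, stood at 7076 CPM in cycling and 7309.7 in the other cells, a ratio of cycling over other of -0.05 (-0.06 to -0.03). S100a4 stood at 556 and 530.2, a ratio of 0.07 (0.01 to 0.13). S100a11, S100a16, S100a1 and S100a13 were lower in cycling cells, with ratios of -0.22, -0.27, -0.37 and -0.42. All cells of this comparison came from 1 library, and the median cycling cell had 36545 UMIs against 25967.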

How the data were processed

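RNA of the dorsal and ventral cultures, 1 pooled library each, was read with the 10x 3′ v3 kit, per the labels' protocols. The authors deposited unfiltered matrices of UMI counts per gene and barcode (6794880 barcodes, 28692 genes), and the submitters' processing notes name Cell Ranger 3.0.2 and mm10. All values were computed from these counts. Cells were barcodes with at least 8000 UMIs and at most 20% mitochondrial UMIs, which held 92.8% of the dorsal and 95.6% of the ventral UMIs, and 22 cell barcodes occur in both libraries.

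Cells were clustered together without integration (scanpy 1.11.5, 2000 variable genes without S100 genes, 30 components, 15 neighbours, Leiden resolution 1.0). A cluster was named where at least 3 markers and a set minimum share of a list passed and at least 1 own marker was among its 10 leading genes. Otherwise, at least 5 fibroblast markers, each in at least 50% of a cluster's cells, made it fibroblast-like. For that name no fibroblast marker had to be among the 10 leading genes, but no other cell type's list could have more there. Clusters with 5 or more cell-division genes among the 10 leading genes got no name, which left clusters 3 and 19 outside the classes. These rules were set after the clusters were seen, so class values depend on rebuilt names. Doublets stayed in. Scrublet's threshold marked 0 dorsal cells, too few to have worked, and 5.11% of ventral cells, so the alternative without doublets left out the 7.43% of dorsal cells with the highest scores.

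With 1 library per domain no test was run. Ratios carry exact conditional binomial intervals, levels exact Poisson intervals and shares Clopper-Pearson intervals, all at 95% and for counting error only. The ratio computation was tested on simulated counts. Shares of cells used cells thinned to 8000 UMIs. All 10 members are named, with partner genes of highest level or at least 2-fold apart and, of the 3 genes most like each member, all but a few that are not reported here. The members and lists were chosen with earlier results of these data known. Gene positions come from GENCODE M21, whose identifiers matched 28339 of 28692 genes, and promoter sequences from RefSeq.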

Additional observations from a re-analysis of the deposited data

Results flagged for a closer look

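Barcodes that were called as cells in only 1 library also carried UMIs in the other library's matrix, which the comparisons do not use. In the dorsal matrix the 10627 barcodes called in the ventral library alone had a median of 65 UMIs, 0.298% of their UMIs. In the ventral matrix the 8904 barcodes called in the dorsal library alone had a median of 70 UMIs, 0.306% of theirs. Of the 20078 dorsal barcodes with 10 to 100 UMIs, 8835 were ventral cells, and of 70500 such ventral barcodes 6706 were dorsal cells. With those barcodes kept, the dorsal low-UMI level of S100a4 was 172 CPM, against 119 without them. The 22 barcodes called in both libraries changed no count of members when left out.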

How the results depend on the processing

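The count of 4 members higher by 2-fold or more in the ventral library held under each of the 12 alternatives run, among them other UMI and mitochondrial limits, doublets left out, TMM scaling and every named class at its mean share. The 3 alternatives without the barcode with most S100a9, without barcodes called in both libraries, and without that barcode and macrophage-like cells were chosen after seeing the data. The dorsal count of 0 became 2 with no minimum level (S100a8 and S100a9, both below 20 CPM). TMM scaling, with a log2 factor of -0.12, raised every ratio and the median over all genes alike: S100a4 went from 3.70 to 3.81 and S100b from -0.02 to 0.09. Over 11 alternatives ratios ran from 3.29 to 4.01 for S100a4, 1.51 to 1.75 for S100a6, 1.14 to 1.41 for S100a11, 1.03 to 1.20 for S100a13 and -0.35 to 0.25 for S100b, which was never called. S100a8 ran from -4.77 to -1.42 and S100a9 from -6.04 to -0.81, the values nearest 0 coming without macrophage-like cells and the barcode with most S100a9 for S100a8, and with the named classes at their mean shares for S100a9, a setting that also leaves out the unnamed clusters and with them that barcode. Member and class pairs at least 2-fold apart numbered 12, and 15 at a minimum of 15000 UMIs. Without likely doublets, S100a4 went from 1.41 to 1.08 in macrophage-like cells and S100a6 from 2.0 to 1.70 in endothelial-like cells. The highest class was the same in both libraries for 7 members, and for 5 to 9 under the alternatives. Those counts do not cover the same classes: 7 were ordered in the main setting and with TMM scaling, and 6 in each other alternative. With the other clusterings the mesothelial-like class had 4 to 10 dorsal cells and dropped out. No paired analysis was possible because each domain has 1 library. Below about 20 CPM, small classes hold few UMIs (3 of S100a4 in dorsal endothelial-like cells), and a count of 0 allows up to 3.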
